A study of Mus musculus with 22 samples.

Results

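The genes described here are 35 genes used to recognise T cells and natural killer (NK) cells, measured in mouse B lineage lymphomas. They were chosen by name, with earlier results of these data known, and all 35 were found among the 52636 genes of the count table. By role they comprise 7 genes of the T cell receptor complex, 9 co-receptors and other T cell surface proteins, 4 signalling proteins, 5 lineage transcription factors, 4 NK receptors and 6 effector molecules.

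A T cell recognises peptide through a receptor whose variable chains carry no signalling tail of their own and depend on the CD3 chains, which are phosphorylated by the kinase Lck and pass the signal to the scaffold Lat. NK cells lack that receptor, use germline-encoded activating and inhibitory receptors, and share with cytotoxic T cells the granule proteins perforin and granzymes. A B cell lymphoma in spleen or lymph node usually contains such cells beside the tumour cells. Some of the genes are also active in B cells, so the list marks T and NK cells only in part.

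The study profiled 22 lymphoma libraries from 15 mice by sequencing the 3′ ends of messenger RNA, and compared tumours labelled MCL-like (resembling mantle cell lymphoma) with tumours labelled non-MCL. All mice were of the mixed (129/C57Bl6) background and carried p53fl/fl;Mb1Cretg/+, so that p53 is deleted wherever Cre is made under the B lineage promoter Mb1. The Ccnd2 tumours also carried a cyclin D2 transgene (R26-Ccnd2tg/tg). Primary tumours comprised 4 MCL-like and 3 non-MCL libraries with the Ccnd2 transgene, each from its own mouse, and 7 non-MCL libraries without it from 6 mice, called p53-only here. Replicates 2 and 5 of the p53-only group came from different sites of 1 mouse. Primary tumours were labelled spleen, with these exceptions. MCL-like primary 1 was mesenteric, and Ccnd2 non-MCL primary 1 and p53-only primary 4 were mediastinal. The p53-only primaries 5 and 7 were labelled lymphoma and primary 6 thymoma. Transplants, all labelled spleen, were grown in NSG mice, which have no T, B or NK cells of their own and keep myeloid cells and stroma. They comprised 6 MCL-like libraries from 4 donor mice and 2 Ccnd2 non-MCL libraries from 1 donor. MCL-like transplants 1 and 2 came from the mouse of MCL-like primary 1, transplants 3 and 4 from the mouse of primary 4, and transplant 6 from the mouse of primary 2. Transplant 5 and the Ccnd2 non-MCL transplants came from mice with no primary library here. The 6 MCL-like transplants are titled non-MCL but have MCL-like in the immunophenotype field, which was used. The sources used here give no ages.

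Library totals ran from 2693399 to 8146613 counts, and levels are given as counts or as CPM, which are counts scaled to a common library total. B lineage genes were counted in every library, with at least 13 of 14 above 3 counts. That floor does not tell tumour cells from other B cells in a sample. The tumour labelled thymoma, p53-only primary 6, had 2 counts each of Cd3d and Cd3e, 1 count of the thymocyte gene Ptcra and all 14 B lineage genes above 3 counts. In bulk samples fewer cells of a type and less RNA per cell cannot be told apart.

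Most of the T and NK cell genes were still counted in the grafts of at least 1 donor. A gene was counted as present when all transplant libraries of at least 1 donor had more than 3 counts, a floor that corresponds to 0.515 to 0.983 CPM in the 8 transplant libraries. By that rule 31 of 35 genes were present, 3 stayed at or under 3 counts in every transplant, and Ubash3a lay in between, with 4 counts in Ccnd2 non-MCL transplant 2 and at most 3 elsewhere. The 3 at the floor were Cd40lg, the helper T cell ligand that activates B cells, Foxp3, the transcription factor of regulatory T cells, and Ncr1, an activating NK receptor. Cd40lg and Ncr1 were also rare in the primaries, where their highest libraries had 15 and 27 counts. Foxp3 had 112 and 38 counts in p53-only primaries 3 and 2 and at most 3 in any transplant. Foxp3 overlaps Ccdc22 on the opposite strand, which had 1987 counts in all against 191 of Foxp3, so its level is uncertain. Within the MCL-like transplants alone Klrb1c also stayed at the floor, and 30 genes remained present. The rule asks for only 1 of the 5 donors. Tbx21 and Klrb1c met it in 1 donor, and Trbc1, Cd4, Icos, Eomes, Klrd1, Klrk1, Ifng and Gzma in 2. Cd3d, Cd3g, Trac, Cd2, Lck, Lat and Ccl5 met it in all 5. The share of all genes meeting the rule was not computed, and which cells of the grafts gave these counts was not tested.

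**Figure D1:**
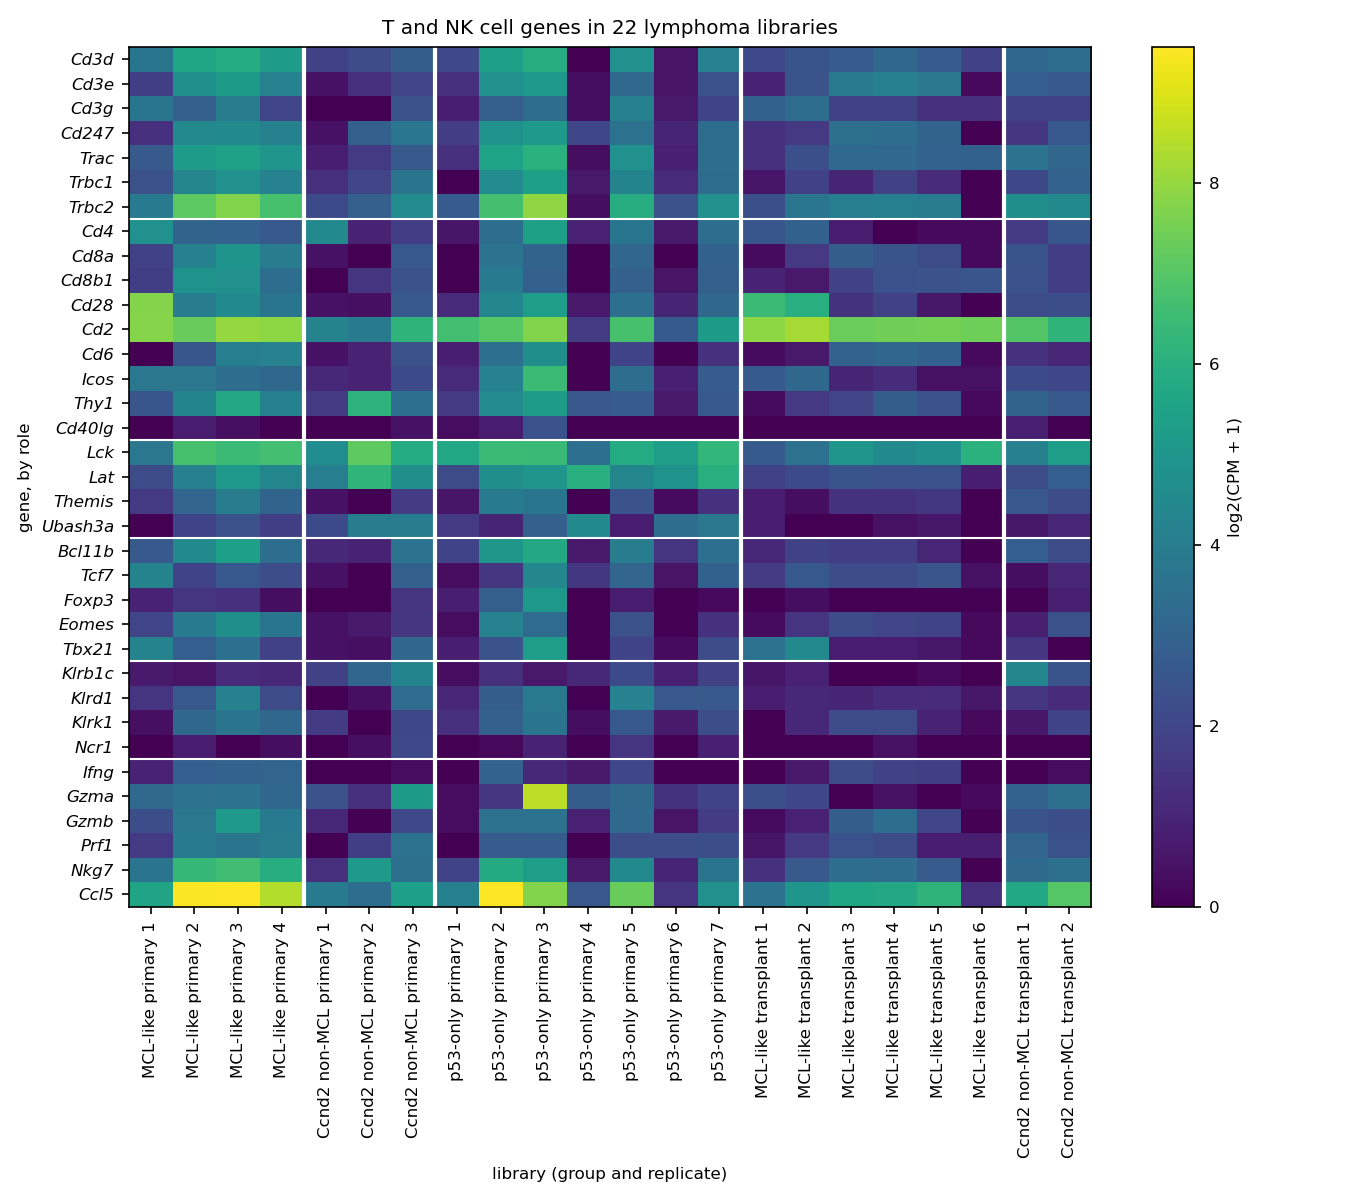
Levels of the 35 genes in 22 libraries. Rows are genes ordered by role, columns are libraries by group, and colour is log2(CPM + 1). The libraries dark in most rows include MCL-like transplant 6, Ccnd2 non-MCL primaries 1 and 2 and p53-only primaries 1, 4 and 6. Cd2 stays bright in all MCL-like libraries.

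How much of the primary level was left differed between donors. For 3 mice both the primary tumour and a graft were sequenced, and the share left is the CPM in the graft, with libraries of 1 donor summed, as a percentage of the CPM in the primary. Shares were computed for genes with more than 10 counts in the primary, so each gene enters through its primary level and the medians describe, but do not test, the loss. In the mouse of MCL-like primary 2, called mouse 2, the median share left was 1.70% over 31 of the genes, against 96.8% over all 11490 genes with such counts. In that graft 10 of the 31 had 0 counts, and with these set to the floor of 3 counts the median was 3.55%. In mouse 4, the mouse of primary 4, the median was 26.6% over 29 genes, with 73.8% over all genes. In mouse 1, the mouse of primary 1, it was 41.6% over 19 genes, with 100.3% over all genes. In all, 29 of 31 genes kept under 25% in mouse 2, 12 of 29 in mouse 4 and 4 of 19 in mouse 1, while 8.76%, 9.38% and 1.11% of all genes did so.

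**Figure D2:**
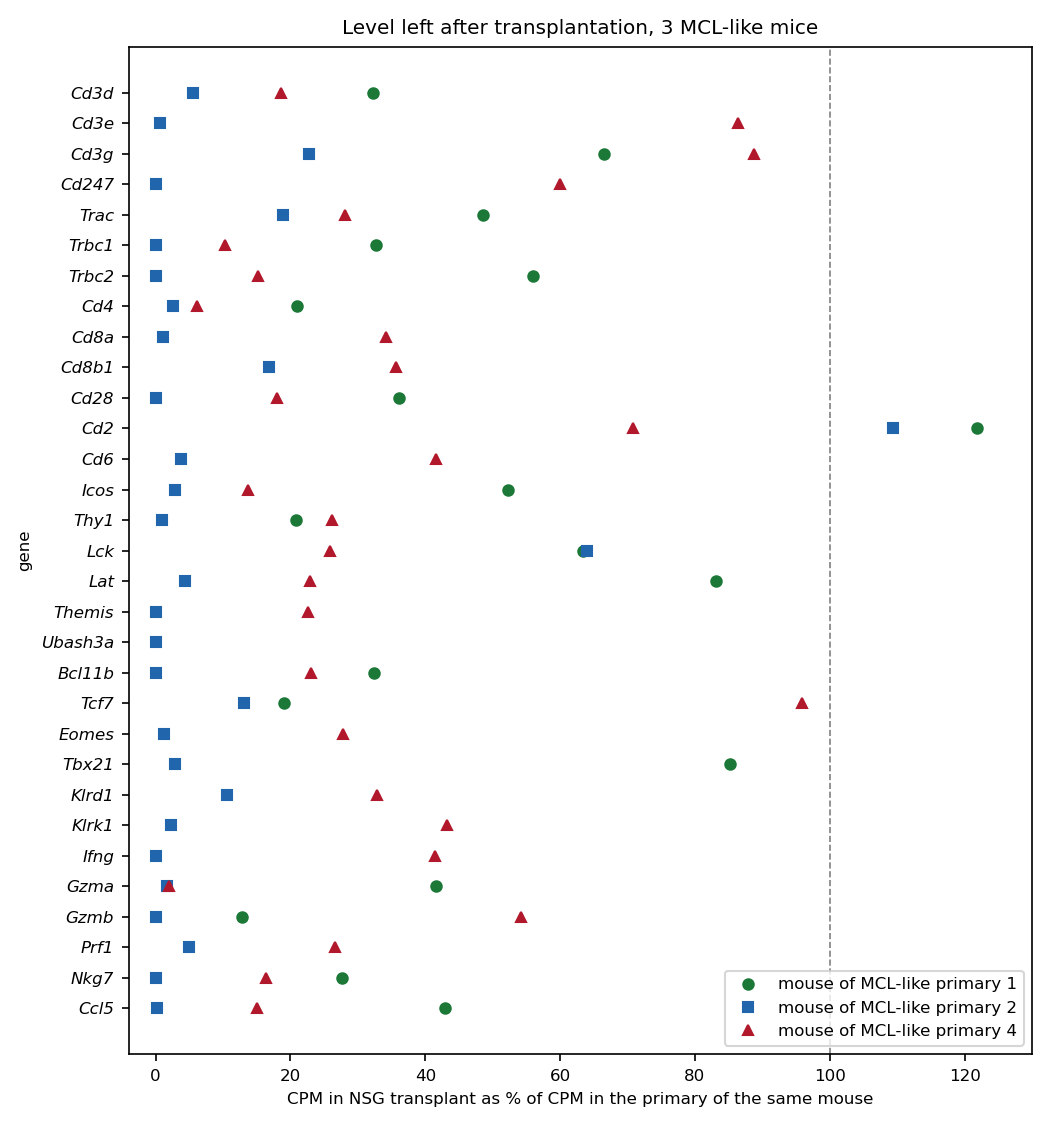
Share of the primary level left in the graft for each gene with more than 10 counts in the primary. The x axis is graft CPM as a percentage of primary CPM, rows are genes, and each symbol is 1 of 3 mice. Nearly all squares (mouse of MCL-like primary 2) sit close to 0, and Cd2 is at 70.8% or above in all 3 mice.

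Among the genes of the receptor complex, Trbc2, a constant segment of the receptor beta chain (chromosome 6, 41546730 to 41548352, plus strand, GRCm38), showed the donor pattern most fully. It had 46, 657, 656 and 391 counts in MCL-like primaries 1 to 4. The MCL-like transplants had 18 and 44 counts for the donor of primary 1, 48 and 49 for the donor of primary 4, 86 in transplant 5 and 0 in transplant 6. All 3 spleen primaries were above every graft, and primary 1, from a mesenteric tumour, was in the range of the grafts. The 0 in transplant 6 allows up to 0.539 CPM, against 138.6 CPM in the primary of the same mouse; this limit covers counting error only. Trbc1, the near-identical other beta constant segment, had 14, 91, 85 and 65 counts in the primaries and 0 to 9 in the MCL-like transplants. Reads can be shared between these copies, so their separate values are uncertain.

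Trac, the constant segment of the alpha chain (chromosome 14, 54220521 to 54224206), had 18, 171, 135 and 113 counts in MCL-like primaries 1 to 4. The transplants had 7, 14, 26, 26, 40 and 38 counts. Unlike Trbc2, Trac was still counted in transplant 6, at 38 counts or 18.9% of its primary level. Cd3d, one of the CD3 signalling chains (chromosome 9, 44981786 to 44987339), had 11.9, 48.7, 58.2 and 37.1 CPM in the MCL-like primaries. Its 6 transplant libraries had 3.30, 4.52, 5.57, 8.19, 5.84 and 2.70 CPM, all below the lowest primary. Its chromosomal neighbours Cd3g and Cd3e (together 44969572 to 45009627 on chromosome 9) did not follow it closely. Cd3e had 26.0 CPM in primary 2 and 0.180 CPM, 1 count, in transplant 6, but 17.5 CPM in primary 4 and 13.4 and 16.7 CPM in its grafts. Cd3g, with 11.9, 6.33, 15.5 and 2.95 CPM in the primaries, kept 66.5%, 22.7% and 88.7% in mice 1, 2 and 4. Cd247, the zeta chain, went from 100 to 0 counts in mouse 2 and kept 60.0% in mouse 4. Cd247 overlaps Pou2f1 on the opposite strand, which had 20514 counts in all, and no source used here gives the strand setting of the counting, so its level is uncertain.

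Of the surface proteins, Cd2, an adhesion receptor of T and NK cells that mouse B cells also carry (chromosome 3, 101275899 to 101287939), was the clearest exception to the loss. It had 216, 156, 254 and 234 CPM in MCL-like primaries 1 to 4. The MCL-like transplants had 233, 300.3, 159, 172, 182 and 171 CPM, a range that overlaps the primaries. In transplant 6, where only 9 of the 35 genes exceeded 3 counts, Cd2 had 949 counts.

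Cd28, the main co-stimulatory receptor of T cells (chromosome 1, 60716800 to 60773359), stood at a higher level in 1 donor. MCL-like primary 1 had 212 CPM (714 counts), and its grafts had 87.7 and 62.7 CPM (399 and 222 counts), a share of 36.2% and below the median of 41.6% in that mouse. The other 3 MCL-like primaries had 15.2, 22.2 and 11.8 CPM and the other 4 grafts 0 to 2.62 CPM. No other library of any group exceeded 38.3 CPM. In primary 1 Cd3e had 8 counts and Cd8a 9, while Cd3d and Cd3g had 40 each, Icos 43, Trbc2 46 and Tcf7 61. Tbx21, the regulator of interferon production in T and NK cells that activated B cells can also express, had 61 counts in the same primary and 50 and 75 in the grafts, a share of 85.2%. Cd4 had 91 counts in the same primary and 22 and 24 in its grafts, whereas grafts 3 to 6 had 2, 0, 1 and 1.

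The co-receptor pair Cd8a and Cd8b1 lie next to each other on chromosome 6 (71322788 to 71379173). Cd8a had 9, 81, 93 and 57 counts in the MCL-like primaries and 1, 7, 18, 14, 21 and 1 in the transplants. Cd8b1 had 8, 132, 86 and 36 counts in the primaries and 4, 2, 8, 13, 26 and 26 in the transplants. In transplant 6 the pair parted, with 1 count of Cd8a and 26 of Cd8b1. Thy1, a glycoprotein of mouse T cells, kept 20.8%, 0.979% and 26.1% in mice 1, 2 and 4. Icos, a co-stimulatory receptor of activated and follicular helper T cells, kept 52.2%, 2.89% and 13.8%. Cd6, a surface partner of the receptor complex, had 0, 23, 50 and 66 counts in the primaries and 1, 2, 21, 24, 39 and 1 in the transplants.

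Among the signalling genes, Lck (chromosome 4, 129548344 to 129573641, minus strand) was retained in the donor in which nearly everything else was lost. Its level was 104 CPM (495 counts) in MCL-like primary 2 and 66.9 CPM (372 counts) in transplant 6. The other MCL-like primaries 1, 3 and 4 had 12.5, 87.7 and 100.5 CPM. The other grafts had 5.49, 11.0, 30.5, 21.6 and 26.1 CPM. Transplant 6 was therefore the highest of the 6 MCL-like grafts for Lck and the lowest for Cd3d, Cd3e and Trbc2. Lat had 12, 78, 104 and 72 counts in the primaries and 12, 12, 14, 13, 25 and 4 in the transplants. Themis, which tunes receptor signals in thymocytes, had 7, 36, 47 and 27 counts in the primaries and 0 to 11 in the transplants. Ubash3a, a phosphatase family member that restrains receptor signalling, had 0 to 13 counts in MCL-like primaries and 0 to 3 in the MCL-like transplants.

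Among the transcription factors, Bcl11b, which commits progenitors to the T lineage, had 18, 105, 127 and 37 counts in the MCL-like primaries. Its transplants had 5, 9, 7, 7, 6 and 0 counts, below every primary. Eomes, a regulator of cytotoxic cells, had 10, 65, 81 and 44 counts in the primaries and 1, 6, 11, 9, 16 and 1 in the transplants. Tcf7, a factor of naive and progenitor T cells, had 61, 13, 16 and 14 counts in the primaries and 10, 18, 11, 11, 27 and 2 in the transplants, so its groups overlapped.

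Ccl5, a chemokine made by memory and cytotoxic T cells and NK cells (chromosome 11, 83525778 to 83530518), had 46.1, 702, 724 and 336 CPM in MCL-like primaries 1 to 4. The transplants had 11.4, 30.5, 48.5, 52.4, 71.8 and 1.44 CPM. The 3 spleen primaries were above every graft, and primary 1 was in the range of the grafts. Nkg7, a granule membrane protein, had 39, 379, 304 and 220 counts in the primaries and 7, 19, 30, 29, 33 and 0 in the transplants. Gzmb, which starts apoptosis in target cells, had 13, 60, 106 and 54 counts in the primaries and 1, 3, 18, 30, 17 and 0 in the transplants. Gzma, a second granule protease, had 29, 50, 36 and 31 counts in the primaries. The MCL-like grafts had 18 and 11 counts of Gzma for the donor of primary 1 and at most 1 count for every other MCL-like donor. Ifng, the cytokine interferon gamma, had 3, 29, 22 and 28 counts in the primaries and 0, 2, 11, 8, 14 and 0 in the transplants, and Prf1, perforin, had 7, 69, 37 and 55 against 2, 7, 13, 11, 4 and 4.

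Klrb1c and Ncr1 were near or under the floor in the MCL-like tumours, while Klrd1 and Klrk1 were counted in most of the primaries. Klrb1c (NK1.1) had 2 to 4 counts in the MCL-like primaries and 0 to 3 in the transplants. Klrd1, the partner chain of the NKG2 receptors, had 6, 24, 54 and 13 counts in the primaries and 3 to 7 in the transplants. Klrk1 (NKG2D), which cytotoxic T cells also carry, had 1, 38, 37 and 31 counts in the primaries and 0 to 11 in the transplants. MCL-like primary 3, at 11.7 CPM, had the highest Klrk1 level of the 22 libraries, and its 17.1 CPM of Klrd1 was second to 17.4 CPM in p53-only primary 5. Ncr1, the receptor most limited to NK and related innate cells, had at most 3 counts in any MCL-like library.

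The promoters of the granule and NK receptor genes share a short sequence, and a few are shown for that reason. Promoters from RefSeq (GRCm38.p6) were matched for 22 of the 35 genes, with 27 start sites. In the 250 bases before each start, 8 motifs were searched on both strands. The RUNX core, TGTGGT, is bound by factors that act throughout T and NK cell development, and 14.05% of all 32851 promoters held it. It was found in 8 of the 22 genes, namely 7 of 8 NK receptor and effector genes (Klrb1c, Klrk1, Ncr1, Nkg7, Prf1, Gzma and Gzmb, not Ifng) and 1 of the 14 others (Lck). A gene was counted when any of its starts held the motif, whereas the shares of all promoters count each start. By start site RUNX was in 9 of 27, and each other motif in as many start sites as genes. The E-box CACCTG was found in 8 of 22 genes and in 17.22% of all promoters, the E-box CAGCTG in 3 (13%), the site of GATA factors, AGATAA, in 2 (9.99%), and the sites of ETS factors (CCGGAAG, 6.91%), of TCF7 (CTTTGAA, 4.46%) and of T-box factors (AGGTGTGA, 1.12%) in 1 each. The palindromic motif of the B cell factor EBF1 was found in 0 of 22 genes and 0.78% of all promoters. In these 22 genes 0 matches of different motifs overlapped. The split by role and the promoters shown were chosen after the matches were seen, so they are a description without a test. Each line gives the 150 bases before a start, 5′ to 3′ in gene direction, with the RUNX core or its reverse complement in capitals. The start sites of Lck are its distal and its proximal promoter, in that order.
Gzma, chr13:113100982-113101131, minus strand: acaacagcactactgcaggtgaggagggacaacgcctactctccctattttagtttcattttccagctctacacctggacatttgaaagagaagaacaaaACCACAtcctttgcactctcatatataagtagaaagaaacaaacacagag
Gzmb, chr14:56262335-56262484, minus strand: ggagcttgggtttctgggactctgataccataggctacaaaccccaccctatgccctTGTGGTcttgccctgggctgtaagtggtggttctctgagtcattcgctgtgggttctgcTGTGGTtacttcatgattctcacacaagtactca
Prf1, chr10:61297686-61297835, plus strand: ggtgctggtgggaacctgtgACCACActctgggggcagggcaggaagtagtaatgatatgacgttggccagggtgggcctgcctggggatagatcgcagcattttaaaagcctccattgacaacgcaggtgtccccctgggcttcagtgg
Klrk1, chr6:129623865-129624014, minus strand: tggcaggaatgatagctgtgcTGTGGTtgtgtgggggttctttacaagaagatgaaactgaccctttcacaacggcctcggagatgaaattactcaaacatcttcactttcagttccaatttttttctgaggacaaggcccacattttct
Lck distal, chr4:129573642-129573791, minus strand: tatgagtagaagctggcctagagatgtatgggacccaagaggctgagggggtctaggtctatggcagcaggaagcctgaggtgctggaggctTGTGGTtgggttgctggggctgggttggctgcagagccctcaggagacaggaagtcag
Lck proximal, chr4:129558373-129558522, minus strand: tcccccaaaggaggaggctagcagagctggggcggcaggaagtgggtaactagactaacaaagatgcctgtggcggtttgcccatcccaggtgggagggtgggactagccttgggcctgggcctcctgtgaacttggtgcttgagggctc

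The comparison of grafts with primaries was fitted on the 3 MCL-like mice that had both, with the mouse as a block, by edgeR's quasi-likelihood test with Benjamini-Hochberg adjustment over all genes tested. Of the 35 genes, 29 passed the filter on low counts, and Klrb1c, Klrd1, Foxp3, Cd40lg, Ncr1 and Ubash3a did not. At an adjusted p under 0.05 edgeR called 0 of the 29, and 0% of all 12020 genes tested were called (0 genes). The fitted log2 fold change of graft over primary was below 0 for 28 of the 29, with a median of -2.52, beside 0.01 over all genes tested. A gene could pass the filter through the 3 primaries alone, which favours a value below 0. These genes also share the same 3 mice, so this count describes a loss and does not test it. At an unadjusted p under 0.05 there were 14 of the 29, while 5.46% of all genes reached it. In 7 of the 29 the groups did not overlap, with 7.25% of all genes. DESeq2 called 2 of the genes, Cd3d and Cd4, among 31 genes in all, and limma-voom called 0. The median was -1.39 without the mouse of primary 2.

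Cd3d averaged 4.65 ± 2.22 scaled CPM in grafts and 30.8 ± 18.1 in primaries (SD, n = 3 mice), where scaled CPM are corrected by edgeR's TMM factors. Its log2 fold change was -2.59 with a standard error (SE) of 0.53 (adjusted p = 0.750). For Cd4 the difference was -3.35 (SE 0.66, adjusted p = 0.750) and for Trac -1.67 (SE 0.42, adjusted p = 0.820). The genes with the widest spread between donors had larger changes and larger errors, with Trbc2 at -3.15 (SE 2.24) and Ccl5 at -3.36 (SE 2.19). Cd3e had -1.44 (SE 1.71), and without the mouse of primary 2 its value was 0.08. Cd2 had 208 ± 58.0 scaled CPM in grafts and 196 ± 42.9 in primaries, a difference of 0.08 (SE 0.29, adjusted p = 0.95) that turned slightly negative, to -0.03, when only library size was scaled. Lck had -0.98 (SE 0.32, adjusted p = 0.820).

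Other cell types' genes were lower in grafts too. All 10 erythroid genes tested were lower in grafts (median log2 fold change -3.43), as were 13 of 14 macrophage genes (-0.78), 8 of 8 neutrophil genes (-1.09), 7 of 7 dendritic cell genes (-1.33) and 6 of 6 genes of stroma and endothelium (-0.80), and 0 of these were called. B lineage genes were lower in 9 of 14, with a median of -0.37. All 14 macrophage genes exceeded 3 counts in all MCL-like libraries, and their summed level was 679 to 1394 CPM in MCL-like primaries and 243 to 816 CPM in the transplants. It went from 1394 to 243 CPM in mouse 2, and was 679 CPM in primary 1 and 816 and 696 CPM in its grafts. The erythroid sum was 23479 to 111249 CPM in the primaries and 277 to 119142 CPM in the transplants. The part of these cells in the result was not tested. Of 30 other T cell genes 19 were tested and 18 were lower (median -0.90), as were 10 of 10 tested among 24 other NK and cytotoxic genes (-1.13). Both tested genes of the gamma delta T and innate lymphoid list (Il1rl1 and Blk, a kinase that B cells also express), 4 of 5 tested thymocyte genes and the 1 thymic epithelium gene tested were lower, with medians of -0.84, -0.64 and -0.12, and edgeR called 0 in these 5 lists.

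**Figure D3:**
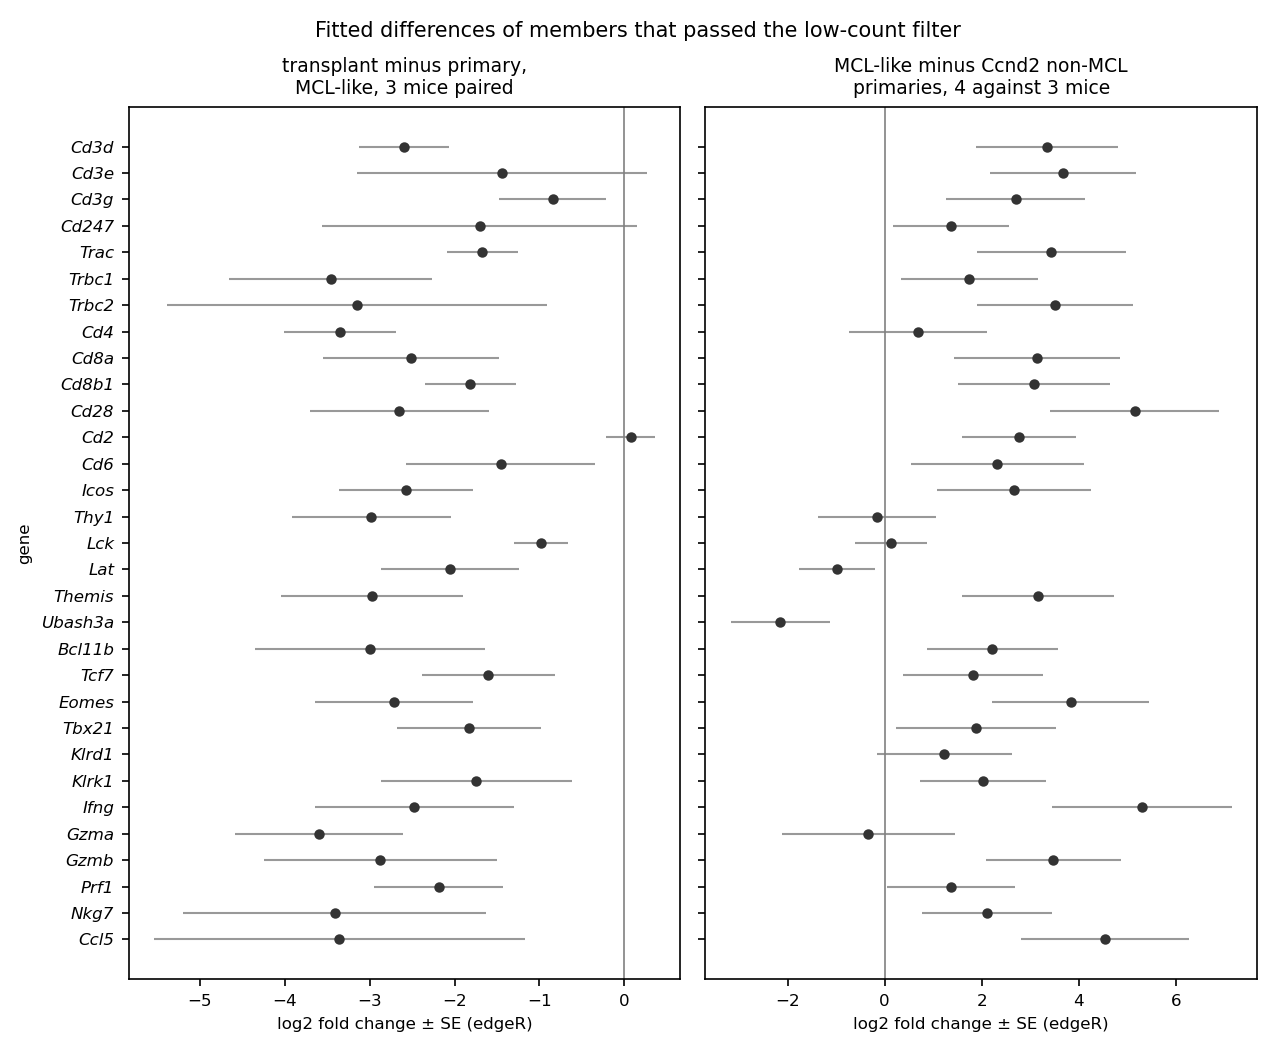
Fitted log2 fold changes with their standard errors for the genes that passed the filter on low counts. The left panel is graft minus primary in 3 MCL-like mice and the right panel is MCL-like minus Ccnd2 non-MCL primaries (4 and 3 mice). On the left all points but Cd2 are below 0, and on the right Ubash3a, Lat, Gzma and Thy1 are below 0.

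Among primaries, 27 of 31 genes had a higher fitted level in MCL-like than in Ccnd2 non-MCL tumours, but 0 passed the test. Tumour sites differed within both groups and were not part of the fit. Cd3e had 2.38, 26.0, 34.8 and 17.5 CPM in the 4 MCL-like mice and 0.371, 1.5 and 2.95 CPM in the 3 Ccnd2 non-MCL mice, so MCL-like primary 1 was within the range of the latter. Ccl5 had 13.7, 9.89 and 39.9 CPM in the Ccnd2 non-MCL mice, below all 4 MCL-like mice. Cd2 had 17.8, 14.4 and 72.3 CPM there, also below all 4. Cd28 had 1, 1 and 43 counts, Ifng 0, 0 and 2, and Eomes 1, 2 and 15. Ubash3a was the reverse, with 3.34, 14.99 and 15.10 CPM against 0, 2.74, 4.11 and 2.42. Lat had 15.6, 73.1 and 24.8 CPM against 3.57, 16.5, 32.9 and 19.3. In CPM the ranges overlapped for both. Ccnd2 non-MCL primary 3 was the highest of its group in CPM for all of these genes except Lat, and was the most deeply sequenced library. Its neutrophil sum was 4227 CPM, against 293 and 226 CPM in Ccnd2 non-MCL primaries 1 and 2, and its part in the result was not tested.

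In the fit, 31 of the 35 genes were tested and edgeR called 0, with 0.308% of 12967 genes called in either direction (8 genes or 0.0617% higher and 32 or 0.247% lower in MCL-like). The log2 fold change of MCL-like over Ccnd2 non-MCL was above 0 for 27 of the 31, with a median of 2.32 beside -0.04 over all genes. At an unadjusted p under 0.05 there were 10 of the 31, and 16.8% of all genes. In 11 of the 31 the groups did not overlap, with 16.6% of all genes. Ccl5 had 472 ± 353 scaled CPM in MCL-like and 20.03 ± 14.5 in Ccnd2 non-MCL tumours (SD, n = 4 and 3), a difference of 4.54 on the log2 scale (SE 1.74, adjusted p = 0.204). Cd28 had 5.15 (SE 1.74, adjusted p = 0.159), Cd3d 3.34 (SE 1.46, adjusted p = 0.262) and Ubash3a -2.15 (SE 1.03, adjusted p = 0.308). DESeq2 called 2 of the genes, Cd3e (3.77, adjusted p = 0.0434) and Ccl5 (4.59, adjusted p = 0.0332), among 847 genes in all, and limma-voom called 0. Leaving out Ccnd2 non-MCL primary 3 raised the median to 4.33. Of the other lists, edgeR called 0 of 24 tested T cell genes, 0 of 17 tested NK and cytotoxic genes and 1 of 14 B lineage genes, Fcrla, higher in MCL-like at 2.36.

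Against all 9 non-MCL mice the groups overlapped for all 31 genes tested, where 4.86% of all genes tested did not overlap. Trbc2 ran from 0.275 to 241 CPM over the 6 p53-only mice (median 16.4), and Ccl5 from 1.80 to 536 CPM (median 22.3). The range of Trbc2 encloses all 4 MCL-like values, and that of Ccl5 encloses 2 of the 4. Of 31 genes tested edgeR called 0, with 5.51% of 12434 genes called (3.11% higher and 2.4% lower in MCL-like), and 27 were above 0 with a median log2 fold change of 1.20 beside -0.07 over all genes. At an unadjusted p under 0.05 there were 7 of 31, and 25% of all genes. The lowest adjusted p of the 31 belonged to Cd28, at 3.28 on the log2 scale (SE 1.09, adjusted p = 0.0869), and MCL-like primary 1 had the highest level. DESeq2 called 1 (Ifng) and limma-voom 3 (Gzmb, Eomes and Ifng). Without p53-only primary 3 edgeR called Cd28 (4.15, adjusted p = 0.0302) and the median was 1.99, and without p53-only primaries 2 and 5, from 1 mouse, it called Ccl5 (3.59, adjusted p = 0.0472). Among the other lists, genes called in this comparison included Il7r, Rag1 and Rag2, lower in MCL-like at -3.43, -10.06 and -5.54, the granzyme inhibitor family gene Serpinb6b, higher at 3.04, and Cd37, Spib and Ms4a1 of the B lineage list, higher at 1.98, 1.72 and 3.23.

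Between Ccnd2 non-MCL and p53-only primaries edgeR called 0 of the 31 genes tested, and 0% of 12967 genes (0 genes). The log2 fold change of Ccnd2 non-MCL over p53-only was below 0 for 26 of the 31, with a median of -1.39 beside -0.04 over all genes. At an unadjusted p under 0.05 there were 0 of 31, and 10.3% of all genes. The groups did not overlap in 0 of 31, with 3.56% of all genes. DESeq2 and limma-voom also called 0. Cd3e had -2.62 (SE 1.39, adjusted p = 0.530) and Icos -3.35 (SE 1.59, adjusted p = 0.493). The median ranged widely with single mice, from -0.68 without p53-only primary 3 to -3.30 without Ccnd2 non-MCL primary 3. The 3 comparisons among primaries share mice, so their values are not independent of each other, and the first and last share a fit of all 13 primary mice. In them too a gene could pass the filter through 1 group alone, so the counts above or below 0 are a description.

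**Figure D4:**
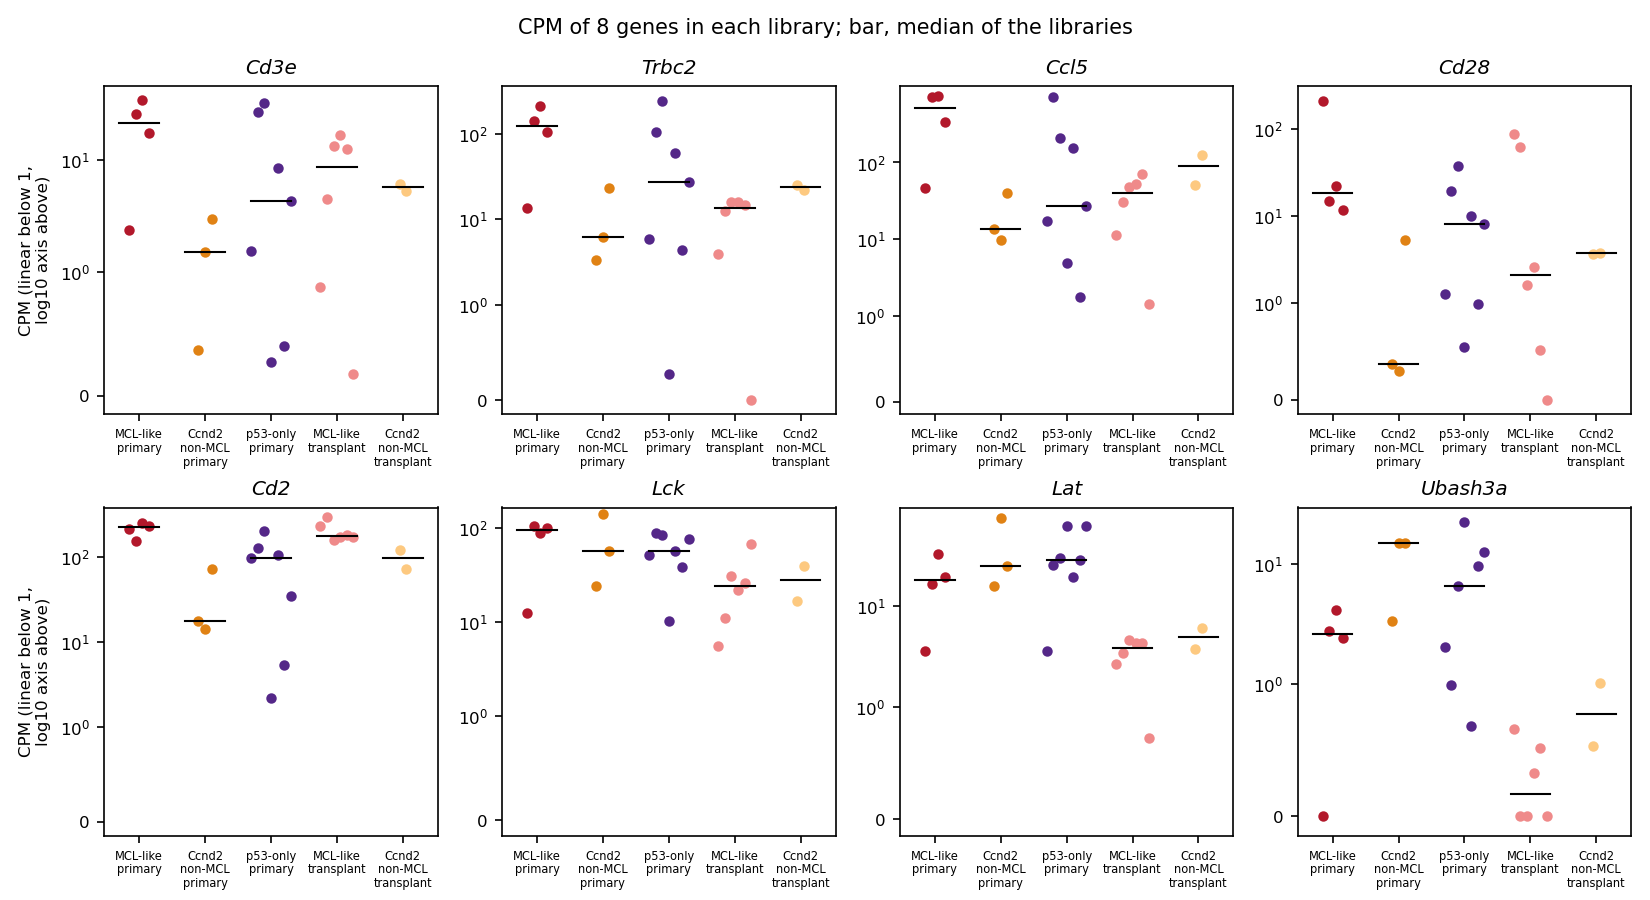
CPM of 8 of the genes in each library by group, on an axis that is linear below 1 and log10 above, with bars at the median of the libraries. The p53-only libraries span nearly the whole range of the other primaries for Cd3e, Trbc2 and Ccl5, and Cd2 is above 100 CPM in every MCL-like library.

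The p53-only group spanned tumours with many and with almost none of these transcripts. Primary 3 had 836 counts of Trbc2, 306 of Icos, 112 of Foxp3 and 1317 of Gzma (379 CPM). The next highest Gzma level in any library was 34.9 CPM, in Ccnd2 non-MCL primary 3. Primary 3 also had the highest macrophage sum, 1853 CPM, against 360 to 1022 CPM in the other p53-only libraries. Its neutrophil sum was 4537 CPM, against 20.6 to 818 CPM in the others. The part of these cells in its T cell values was not tested. The mouse with 2 p53-only libraries gave different levels at its sites, with Ccl5 at 720.0 CPM in the spleen (replicate 2) and 156 CPM in the tumour labelled lymphoma (replicate 5), and Gzma at 1.82 and 8.85 CPM. Klrd1 was also higher in replicate 5, at 17.4 CPM against 5.94.

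In 4 libraries Cd3e was at or under 3 counts, and other genes of the receptor complex were only partly so. Of its 7 genes, 3 exceeded 3 counts in Ccnd2 non-MCL primary 1, 3 in MCL-like transplant 6, 1 in p53-only primary 4 and 4 in p53-only primary 6. This description was chosen after the values were seen, and each library is given on its own. The mediastinal Ccnd2 non-MCL primary 1 had 1 count of Cd3e, and 58 of Cd4, 64 of Lck, 48 of Cd2, 42 of Lat and 37 of Ccl5. Its macrophage sum was 1772 CPM, against 787 and 790 CPM in Ccnd2 non-MCL primaries 2 and 3. Of that sum Lyz2 alone gave 1058 CPM, against 45.9 and 175 CPM in primaries 2 and 3. In primary 1, 11 of the 14 macrophage genes exceeded 3 counts, against 13 and 14 in primaries 2 and 3. The part of macrophages in its values was not tested. MCL-like transplant 6 had 1 count of Cd3e, and Cd2 and Lck as given above. The mediastinal p53-only primary 4 had 1 count of Cd3e and 1 of Trbc2, and 224 of Lat, 82 of Ubash3a, 37 of Lck and 18 of Thy1. The thymoma, p53-only primary 6, had 2 counts of Cd3e and 22 of Trbc2, and 142 of Lat, 48 of Ubash3a, 191 of Lck and 25 of Klrd1. Lck, Lat, Cd2 and Ccl5 exceeded 3 counts in all 4 of these libraries, Gzma, Klrb1c and Ubash3a in 3, and Cd2 was low in p53-only primaries 4 and 6, at 8 and 27 counts.

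Over all primaries Lat and Ubash3a did not always go together. Ubash3a had 22.5, 9.58 and 12.7 CPM in p53-only primaries 4, 6 and 7 and 3.34, 14.99 and 15.10 CPM in Ccnd2 non-MCL primaries 1 to 3. Lat had 61.5, 28.3 and 62.1 CPM in the same p53-only libraries and 15.6, 73.1 and 24.8 CPM in the Ccnd2 non-MCL ones. MCL-like primary 3 and p53-only primaries 2 and 3 had as much Lat as the last of these, at 32.9, 25.3 and 29.9 CPM, with 4.11, 0.991 and 6.62 CPM of Ubash3a. Rag1, which cuts receptor genes in both B and T cell precursors, had 135, 89.4 and 360.4 CPM in p53-only primaries 4, 6 and 7 and 169, 204 and 53.4 CPM in Ccnd2 non-MCL primaries 1 to 3. The other p53-only libraries had 0 to 8.64 CPM of Rag1 and the MCL-like primaries 0 to 0.316 CPM. Ccnd2 non-MCL transplant 1 had 85.2 CPM of Rag1 with 3.70 CPM of Lat and 0.529 CPM of Ubash3a, and transplant 2 had 26.4, 6.10 and 1.02 CPM. The Ptcra count was at most 1 in every library, so this marker of thymocytes was absent within the floor of 3 counts.

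The 2 Ccnd2 non-MCL transplants, from 1 donor, were close for some of the genes and apart for others. Trbc2 had 25.4 and 21.9 CPM, Cd3e 6.08 and 5.34, and Cd28 3.70 and 3.81, while Cd247 had 1.85 and 5.08 CPM and Trbc1 3.17 and 6.86. Klrb1c had 74 and 18 counts, Eomes 3 and 16, and Ccl5 194 and 499, while Klrd1 had 7 and 5, Gzmb 17 and 15 and Nkg7 33 and 41. Klrb1c was also counted in the Ccnd2 non-MCL primaries, at 7, 26 and 150 counts, or 2.60, 7.79 and 18.4 CPM, and in no MCL-like library above 4. With 1 donor there is no replicate check of these grafts.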

How the data were processed

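RNA was extracted from frozen lymphoma cells and made into 3′ end libraries, per the labels' protocols. The submitters' processing notes name FastQC, STAR and the build GRCm38. No source used here gives versions, the read counter or its strand setting. The authors deposited raw counts per gene and library, without normalization. Symbols and coordinates came from GENCODE M21, with 52403 of 52636 identifiers matched. Libraries of 1 mouse in 1 group were summed.

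Genes were tested with edgeR 4.0.16 (TMM scaling, filterByExpr, robust quasi-likelihood F test, Benjamini-Hochberg adjustment, R 4.3.3). A standard error is the size of the log2 fold change over √F. The 13 primary mice shared 1 fit for the comparisons of single groups. The MCL-like primaries were set against all non-MCL primaries in a fit of 2 groups. Grafts and primaries of the same 3 mice were fitted with the mouse as a block, since the labels name each donor. Deviations from group means correlated at 0.214, 0.357 and 0.226 within a mouse over 11966 genes. Alternatives were other scalings, DESeq2 1.42.0, limma-voom (limma 3.58.1), no filter, spleen tumours only for the comparisons of primaries, and left-out mice or tumours. The script was tested on simulated data.

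The genes and lists were chosen with earlier results of these data known. The text names all 35 genes, and of other lists up to 3 called genes per comparison. Ptcra, and Rag1 in single libraries, were named after their values were seen. Results of 1 gene are not reported here. Limits on counts of 0 are 3 counts.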

Additional observations from a re-analysis of the deposited data

Results flagged for a closer look

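Dixon's criterion at the 95% level was applied to CPM in 94 combinations of a gene and a group of 4 or 6 mice. In 20 of them 1 mouse was far from the others, each time the highest. A chance rate of 1 in 20 assumes normally distributed values, and CPM cannot be negative, so that rate need not hold here. The number flagged is therefore a description without a test. The genes share libraries, so the flags are not separate observations.

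In p53-only primary 3 the level stood above the other 5 mice for 9 genes. Trbc2 had 241 CPM, Cd4 41.8 CPM, Cd6 25.9 CPM and Icos 88.1 CPM. Cd40lg had 4.32 CPM, Tcf7 19.9 CPM, Foxp3 (uncertain because of an overlapping gene) 32.2 CPM, Tbx21 37.7 CPM and Gzma 379 CPM. In the mouse of p53-only primaries 2 and 5, Ifng had 5.67 CPM, the highest of 6.

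MCL-like primary 1 stood above the other 3 MCL-like mice for Cd28 at 212 CPM, Cd4 at 27.1 CPM and Tcf7 at 18.1 CPM. The summed grafts of the same mouse stood above the other 3 donors for Cd28 at 76.8 CPM, Cd4 at 5.69 CPM, Cd2 at 263 CPM, Icos at 6.67 CPM, Tbx21 at 15.4 CPM and Gzma at 3.58 CPM. Cd28 and Cd4 were thus highest in this mouse in both the primary tumour and its grafts. The dendritic cell sum given above was also highest there among MCL-like tumours, and its part was not tested. The summed grafts of the mouse of primary 4 stood above the other donors for Prf1, at 3.93 CPM.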

How the results depend on the processing

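Calls among the 35 genes appeared under some settings. For grafts against primaries DESeq2 called 2 and the fit without the low-count filter 2, Cd3d and Cd4 in both. For MCL-like against Ccnd2 non-MCL primaries DESeq2 called 2 (Cd3e and Ccl5), as did the fit without tumours whose names in the labels start with oTP (Cd3g and Cd2). Against all non-MCL primaries DESeq2 called 1 and limma-voom 3, and leaving out each mouse in turn gave 0 to 1. For Ccnd2 non-MCL against p53-only primaries the fit without oTP tumours called 1, Cd2. Without the replicate block, grafts and primaries gave 0 called genes, both for the 3 mice and for all 4 against 4. Cd3e in grafts against primaries reversed to 0.0762 without the mouse of primary 2. Cd2, close to 0 in that comparison, reversed to -0.0285 with library size only, -0.0634 without the block for all 4 against 4 mice, and -0.0167 without the mouse of primary 1. The medians over the genes ran from -3.0 to -1.39 for grafts against primaries when 1 mouse was left out. Over all alternatives they ran from 1.99 to 4.33, from 0.69 to 2.24 and from -4.18 to -0.35 in the 3 comparisons of primaries, and the values furthest from the reported ones came from leaving out Ccnd2 non-MCL primary 3, from limma-voom and from leaving out the oTP tumours. The number of genes present in transplants was 30 with a floor of 10 counts or MCL-like transplants only, 31 with a floor of 1 CPM, and 30 to 31 without each donor in turn. With TMM scaling, chosen after seeing the data as was leaving out donors, the median shares left were 38.7%, 1.76% and 34.4% in mice 1, 2 and 4. The cause of these changes was not tested. Depth limits genes with few counts, such as Cd40lg, Foxp3 and Ncr1.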

Other observations

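Some other T cell genes differed widely between the 2 grafts of the Ccnd2 non-MCL donor. Il7r, the interleukin 7 receptor of T cells and early B cells, had 82 and 2419 counts. Ctla4, an inhibitory receptor of activated T cells, had 4 and 143 counts, and Rasgrp1, an exchange factor downstream of antigen receptors, had 282 and 13. Trbc2 in the same libraries had 96 and 86 counts. These genes were chosen after their values were seen.

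Zap70, the kinase that binds the phosphorylated CD3 chains, had 57.2, 51.3 and 157 CPM in Ccnd2 non-MCL primaries 1 to 3. The p53-only primaries 1 to 7 had 9.13, 20.5, 43.5, 96.4, 8.17, 23.9 and 100.9 CPM of it. It had 2.08, 12.2, 15.2 and 16.7 CPM in the MCL-like primaries. Cd5, a surface receptor of T cells and B1 cells, had 158, 177, 76 and 113 counts in the MCL-like primaries. The MCL-like transplants had 101, 139, 38, 39, 82 and 167 counts of Cd5. In the mouse of primary 2 Cd5 thus had 177 counts in the primary and 167 in the graft, a library in which Cd3e had 1 count. Zap70 and Cd5 were also chosen after their values were seen.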
